A study of Mus musculus with 6 samples.

Results

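The genes described here are 10 core members of the Notch pathway: the 4 receptors Notch1, Notch2, Notch3 and Notch4, the 4 ligands Jag1, Jag2, Dll1 and Dll4, and the 2 target genes Hes1 and Hey1. They were chosen by name, with earlier results of these data known, and all 10 were among the 23594 genes of the deposited table. RNA came from the apical part of the furcation development region (FDR), the middle of the developing root where the floor of the pulp chamber forms, which was collected by laser-capture microdissection from mandibular first molars of 4.5-day-old (PN4.5) mice. There were 3 control libraries, labelled wild type, and 3 Lhx6-/- libraries, all of the strain C57BL/6. Lhx6-/- mice were homozygous for an Lhx6-CreER knock-in allele that removes the function of Lhx6 in every cell, and the controls were their littermates. Each library pooled tissue of several molars, so a library is not 1 animal.

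Notch receptors are single-pass membrane proteins that are activated by ligands on the neighbouring cell. Binding of a Jagged or Delta ligand leads to cleavage of the receptor by an ADAM protease and by gamma-secretase, and the freed intracellular domain joins the DNA-binding protein RBPJ and Mastermind to switch on genes such as those of the Hes and Hey repressors. In developing teeth the pathway is known from the enamel organ, where Jag2 and Notch1 lie in neighbouring layers, from the dental pulp, and from vessels, where Dll4 and Notch1 act in endothelium and Notch3 in pericytes and smooth muscle.

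RefSeq promoter windows (GRCm38.p6) were matched for 8 of the 10 members, all but Hes1 and Hey1. The 250 bases before the start site are shown for a receptor and a ligand whose control and Lhx6-/- libraries did not overlap in the values given further on and whose windows held an N-box, the CACNAG motif that Hes repressors bind. Capitals mark the N-box, read on either strand. The Notch3 window is chr17:32166891-32167140, minus strand, and overlapped no annotated gene. The Dll4 window is chr2:119325534-119325783, plus strand, and overlapped an exon of Gm14207, a gene on the opposite strand.
Notch3: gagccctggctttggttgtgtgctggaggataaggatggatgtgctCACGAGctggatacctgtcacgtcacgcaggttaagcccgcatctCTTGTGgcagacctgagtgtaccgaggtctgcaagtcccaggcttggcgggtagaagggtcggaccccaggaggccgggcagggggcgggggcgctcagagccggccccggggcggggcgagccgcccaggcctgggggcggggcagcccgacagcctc
Dll4: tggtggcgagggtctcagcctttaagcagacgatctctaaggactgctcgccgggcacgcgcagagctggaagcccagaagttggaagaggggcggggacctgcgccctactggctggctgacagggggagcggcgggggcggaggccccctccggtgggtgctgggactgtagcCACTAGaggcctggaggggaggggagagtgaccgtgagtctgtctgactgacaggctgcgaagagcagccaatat
Counted from the start site, the N-boxes began at base -204 (plus strand of the gene) and base -159 (minus strand) in Notch3 and at base -75 (plus strand) in Dll4. Notch1 and Notch2 also held an N-box, at -108 and -247. The Notch1 window (chr2:26503823-26504072, minus strand) lies inside the annotated Notch1 gene and overlaps its exons, so it is not upstream of the whole gene. The same holds for the Jag2 window and for a Dll1 window (chr17:15375824-15376073, minus strand). Dll1 also supplied another window (chr17:15376933-15377182). The Jag1, Notch2 and Notch4 windows overlap exons of their own gene in part. For Notch3, the 50 bases after the start site were not found whole in a GENCODE transcript of the gene. Of the 9 member windows, 4 held an N-box, against 36.7% of all 32851 RefSeq windows of the same length. The core RBPJ motif TGGGAA was in 0 of the 9 windows (21.6% of all windows), and the E-box CACGTG, also read by Hes and Hey proteins, was in 0 (6.02% of all windows). Both strands were searched, and no stretch that matches one of these 3 motifs can match another. These counts describe letters in short windows and do not show binding.

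Libraries held 60132323 to 76157433 estimated counts, and values are given as CPM, a gene's counts scaled to the size of its library after TMM normalization, unless stated. Lhx6, the targeted gene, stood at 27.8, 18.2 and 21.9 CPM in the control libraries and at 12.8, 9.82 and 10.5 CPM in the Lhx6-/- libraries. All Lhx6-/- values lay below all control values, and Lhx6 fell by 1.04 on the log2 scale (SE 0.16, edgeR adjusted p = 0.021). Without control replicate 3, Lhx6-/- replicate 2 or Lhx6-/- replicate 3, its edgeR adjusted p was 0.111, 0.11 and 0.0772. Its RNA was lower but not absent, and the counts do not show which part of the gene the remaining reads came from. Markers of dental mesenchyme, odontoblasts, dental epithelium, ameloblasts, endothelium, pericytes and smooth muscle were all detected, with 0 markers at 0 in all libraries. The 7 ameloblast markers alone summed to 115000 to 146000 CPM, so the captured tissue held RNA of enamel-forming cells beside that of the mesenchyme.

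The first question was which Notch genes the FDR tissue expressed and at what level. Levels were compared between genes as RPKM, which divides a gene's CPM by the length of its exons in kilobases, over the 6 libraries (mean ± SD, n = 6). The targets led: Hes1, a repressor that keeps progenitors from differentiating, had 15.3 ± 1.14 RPKM, and Hey1, a related repressor, had 14.1 ± 1.31 RPKM. The ligand Jag2 and the receptor Notch2 were next and level with each other, at 13.1 ± 0.904 and 13.1 ± 0.751 RPKM. Notch3 had 12.0 ± 2.06 RPKM and the ligand Jag1 10.4 ± 0.723 RPKM. A step followed, and the other members lay in a lower group. Dll4, a ligand of endothelial tip cells, had 3.86 ± 0.45 RPKM and Notch1 3.7 ± 0.439 RPKM. Notch4, a receptor found mainly in endothelium, had 3.09 ± 0.369 RPKM and Dll1 1.49 ± 0.198 RPKM. Dll1 thus lay above 43.0% and Hes1 above 89.3% of the 19724 genes with a length.

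**Figure D1:**
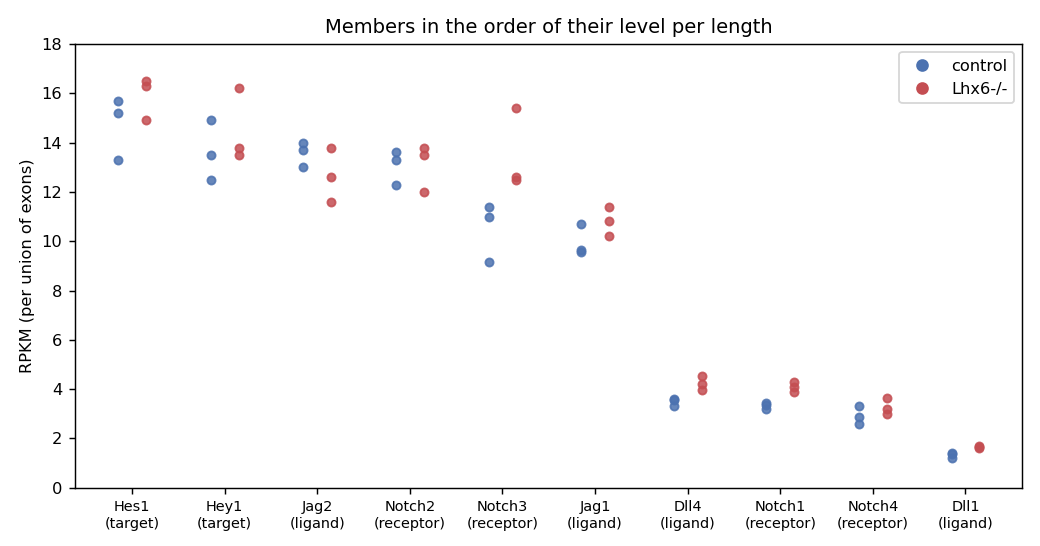
RPKM (y axis, from 0) of each member in each of the 6 libraries, with members on the x axis in falling order of their mean and points coloured by genotype. Hes1 to Jag1 lie at 9.14 RPKM or more in every library and Dll4 to Dll1 at 4.52 RPKM or less, so the gap between Jag1 and Dll4 is seen in all 6 libraries.

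Of the 9 pairs of neighbours in this order, 4 kept one direction in all 6 libraries: Hes1 over Hey1, Jag1 over Dll4, Notch1 over Notch4 and Notch4 over Dll1. Jag1 exceeded Dll4 2.71-fold and Notch4 exceeded Dll1 2.08-fold, whereas Hes1 exceeded Hey1 1.09-fold and Notch1 exceeded Notch4 1.2-fold. An exact two-sided sign-flip test over the 6 libraries gave p = 0.0312 for each of these 4 pairs, the smallest it allows. After Benjamini-Hochberg adjustment over the 9 pairs this was 0.0703. With only 4 pairs at the smallest p, no step in the order could pass 0.05 after adjustment, however large. The order was taken from the same 6 libraries, so the test adds no independent support to it. Jag2 and Notch2 changed places between libraries (Jag2 higher in 3 of 6, ratio 1.0, p = 0.938 in the same exact test), as did Dll4 and Notch1 (Dll4 higher in 3 of 6). The places of Notch1 and Jag2 depend on the length used. The Notch1 annotation holds long extra exons, with 14232 bases in all against 9488 bases in the longest coding transcript. By the coding transcript Notch1 stood at 5.55 RPKM, above Dll4 at 3.96 RPKM in all 6 libraries. By that length Jag2, at 17.9 RPKM, exceeded Notch2, at 13.4 RPKM, 1.33-fold in all 6 libraries. In the control libraries alone, Hey1 and Jag2 were level (13.6 RPKM each, Hey1 higher in 2 of 3), and Notch2 exceeded Notch3 1.24-fold in 3 of 3.

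The second question was whether loss of Lhx6 moved these genes. By edgeR's quasi-likelihood test 0 of the 10 members passed an adjusted p of 0.05, a threshold that 0.403% of the 20114 tested genes passed. With DESeq2 1 member (Notch1) passed, and with limma-trend 0. By the study's own kind of rule, which asks for a 1.5-fold or larger change together with an unadjusted p below 0.05, 0 of 10 members were called, against 3.28% of all genes. At an unadjusted p under 0.05 there were 4 of 10 members (Notch1, Notch3, Dll1 and Dll4), each with the higher mean in Lhx6-/- libraries, against 4.75% of all genes in that direction. The same 4 were the members whose control and Lhx6-/- values did not overlap, against 7.86% of all genes that stood higher without overlap. The log2 fold change was above 0 for 9 of 10 members (49.7% of all genes), with a median of 0.139 over members and -0.002 over all genes. These 10 genes were measured in the same 6 libraries and are not independent of each other.

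**Figure D2:**
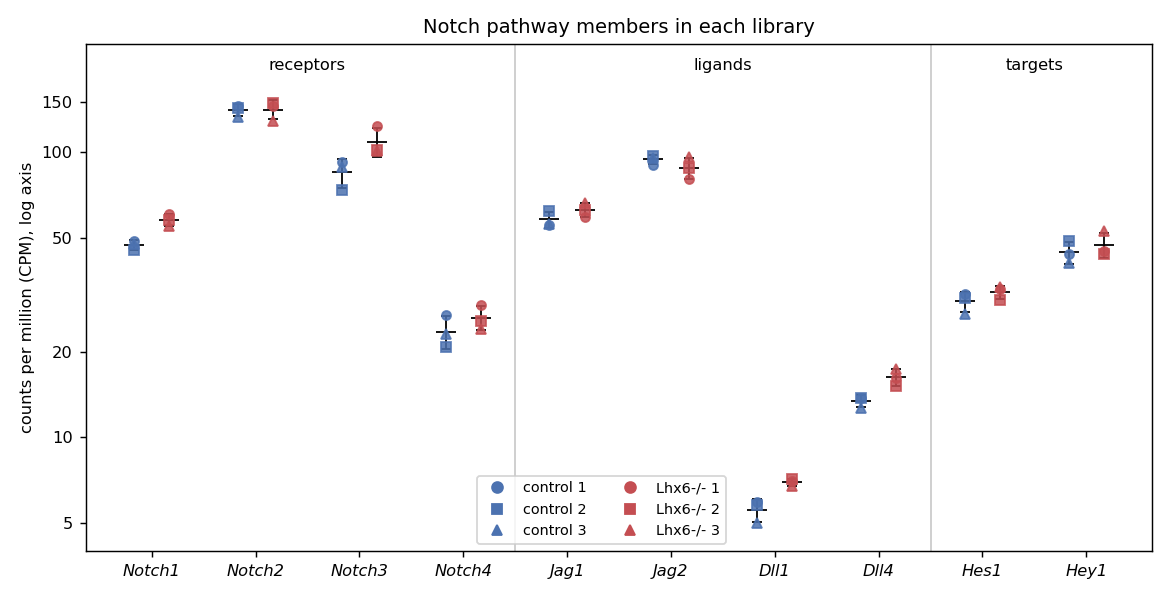
CPM (y axis, log scale) of the 10 members in each library, with genes on the x axis grouped as receptors, ligands and targets. Points are libraries (shape, replicate number; colour, genotype), dashes are group means and bars are SD over 3 libraries. Notch1, Notch3, Dll1 and Dll4 show no overlap between genotypes, Notch2 has the same mean in both (141 CPM), and Jag2 is the 1 member with the lower mean in Lhx6-/- libraries.

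Among the receptors, Notch3 had the largest difference. Notch3 stood at 92.6, 73.9 and 89 CPM in control and at 124, 102 and 101 CPM in Lhx6-/- libraries. The lowest Lhx6-/- value lay above the highest control value, and Lhx6-/- replicate 1 was the highest of all. The group means were 85.2 ± 9.9 and 109 ± 13.1 CPM (SD, n = 3 each). The fold was 1.28 (95% interval 1.09 to 1.5), with a log2 fold change of 0.36 (SE 0.10), an unadjusted p of 0.00513 and an edgeR adjusted p of 0.248.

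Notch1, the receptor with the smallest p, stood at 49, 45.3 and 47.7 CPM in control and at 61, 57.9 and 55.3 CPM in Lhx6-/- libraries. The groups were tight and did not overlap, with means of 47.3 ± 1.86 and 58 ± 2.83 CPM (SD, n = 3 each). The fold was 1.23 (95% interval 1.1 to 1.37), with a log2 fold change of 0.29 (SE 0.07), an unadjusted p of 0.00142 and an edgeR adjusted p of 0.151. Notch1 ranked 190 of all 20114 genes by p.

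Notch2 and Notch4 overlapped between genotypes. Notch2, the receptor with the highest level per length, had 146, 143 and 133 CPM in control and 146, 149 and 129 CPM in Lhx6-/- libraries. These values were interleaved, and the 95% interval of the fold ran from 0.893 to 1.13 (unadjusted p = 0.96 by edgeR, fitted across all genes). Notch4 had 26.8, 20.7 and 23 CPM in control and 29.2, 25.7 and 24.1 CPM in Lhx6-/- libraries. Control replicate 1 lay inside the Lhx6-/- range, and the 95% interval of the Notch4 fold was 0.949 to 1.32.

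The ligands differed among themselves. Dll4 stood at 13.8, 13.8 and 12.7 CPM in control and at 16.2, 15.2 and 17.4 CPM in Lhx6-/- libraries, without overlap. Its fold was 1.21 (95% interval 1.04 to 1.41), with an unadjusted p of 0.0189 and an edgeR adjusted p of 0.381. Dll1, the member with the fewest reads (296 to 531 counts a library), stood at 5.96, 5.79 and 5 CPM in control and at 7.05, 7.13 and 6.75 CPM in Lhx6-/- libraries. These groups were also separate, with a fold of 1.25 whose 95% interval reached from 1 to 1.56 (unadjusted p = 0.0496, edgeR adjusted p = 0.509). Both Delta-like ligands thus had the higher mean in Lhx6-/- libraries, and neither passed the adjusted threshold.

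The Jagged ligands overlapped. Jag1, which binds receptors on neighbouring cells in epithelium, mesenchyme and vessels, had 55.8, 62.5 and 56.3 CPM in control and 59.5, 62.7 and 66.7 CPM in Lhx6-/- libraries. Jag2, the ligand with the highest level per length, had 90.6, 97.2 and 95.5 CPM in control and 80.7, 88.1 and 96 CPM in Lhx6-/- libraries. Only in Lhx6-/- replicates 1 and 2 was Jag2 below all controls. The 95% intervals of the fold were 0.966 to 1.21 for Jag1 and 0.833 to 1.05 for Jag2.

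Hes1 and Hey1, which are read as an output of the pathway, overlapped between genotypes as well. Hes1 had 31.9, 30.9 and 27.2 CPM in control and 33.1, 30.4 and 33.6 CPM in Lhx6-/- libraries. Hey1 had 44, 48.8 and 40.9 CPM in control and 45.1, 44.1 and 53 CPM in Lhx6-/- libraries. For Hes1, 2 of the 3 control values lay inside the Lhx6-/- range, and for Hey1 control replicate 2 did. The 95% interval of the fold was 0.946 to 1.23 for Hes1 and 0.925 to 1.22 for Hey1, so a change of 1.5-fold lies outside both intervals, while smaller changes in either direction lie inside.

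**Figure D3:**
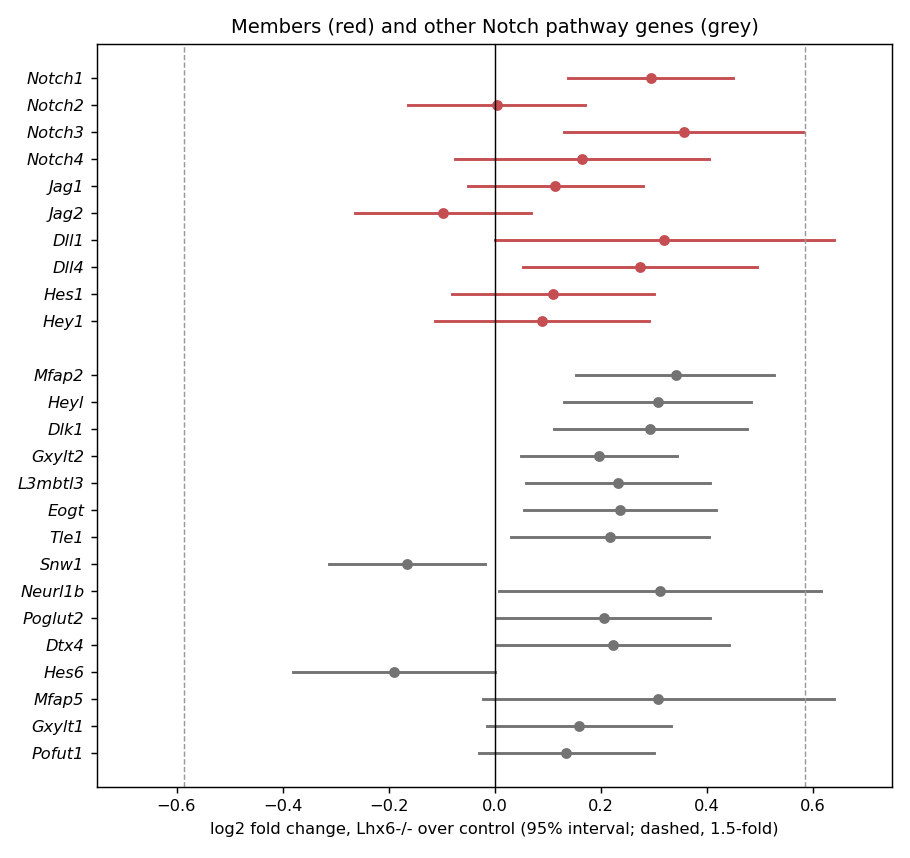
Log2 fold change of Lhx6-/- over control (x axis; points, edgeR estimates; bars, 95% intervals) for the 10 members in red and for 15 other Notch pathway genes in grey, which are the 15 of smallest p among those with an unadjusted p under 0.05 or without overlap between genotypes. Dashed lines mark 1.5-fold in either direction, and the points lie between them, from -0.19 for Hes6 to 0.357 for Notch3.

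Genes whose annotation overlaps another gene carry an added uncertainty, because the sources used here do not state whether reads were counted by strand. In GENCODE vM21, Notch1 (chr2:26457903-26516663, minus strand) overlaps 0610009E02Rik and Gm13568 on the opposite strand and Mir6996 on its own. Notch3 (chr17:32120820-32166852, minus strand) overlaps Gm17276, Dll4 (chr2:119325784-119335962, plus strand) overlaps Gm14207, Dll1 (chr17:15367354-15376872, minus strand) overlaps A930024N18Rik and Notch4 (chr17:34564268-34588503, plus strand) overlaps Gm20462, all on the opposite strand. Notch2 (chr3:98013527-98150361, plus strand) overlaps Gm42819 and Gm42820, and Jag2 (chr12:112907819-112929776, minus strand) overlaps Mir6941, on their own strand. Jag1 (chr2:137081456-137116644, minus strand), Hes1 (chr16:30064384-30067796, plus strand) and Hey1 (chr3:8663359-8667256, minus strand) overlap no other gene there. All positions are those of GRCm38.

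The make-up of receptor and ligand RNA was then compared within each library, which does not depend on the scaling between libraries. Notch2 made up 42.7%, 47.2% and 41.7% of the summed receptor RPKM in control and 36.8%, 41.0% and 38.2% in Lhx6-/- libraries. Notch3 made up 36.0%, 32.4% and 37.3% in control and 41.8%, 37.5% and 39.8% in Lhx6-/- libraries. The share of Notch2 was lower and that of Notch3 higher in each Lhx6-/- library than in any control library. However, the Notch3 shares of control replicate 3 and Lhx6-/- replicate 2 were only 37.3% and 37.5%. The Notch1 share was also higher without overlap (means of 11.2% in control and 12.0% in Lhx6-/- libraries). Shares of a sum are tied to each other, and Notch2 had the same mean CPM in both genotypes (141). The ratio of Notch3 to Notch2 RPKM was 0.843, 0.687 and 0.894 in control and 1.14, 0.915 and 1.04 in Lhx6-/- libraries. Notch2 was therefore the leading receptor in all control libraries, and Notch3 led in Lhx6-/- replicates 1 and 3. With 3 libraries against 3, an exact two-sided permutation test cannot give a p below 0.1, which is the p of each share without overlap.

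Among the ligands, Jag2 made up 47.2%, 47.1% and 49.2% of the summed ligand RPKM in control and 41.9%, 43.5% and 44.0% in Lhx6-/- libraries. Dll4 made up 13.0%, 12.1% and 11.9% in control and 15.2%, 13.6% and 14.4% in Lhx6-/- libraries. Jag2 thus had the largest single share of the 4 ligands in each library, with a lower share and a higher Dll4 share in every Lhx6-/- library. The Jag1 share was also higher without overlap (means of 35.2% in control and 36.8% in Lhx6-/- libraries). These shares too are tied to each other. The ratio of Jag2 to Jag1 RPKM was 1.36 ± 0.0597 in control and 1.17 ± 0.0349 in Lhx6-/- libraries (SD, n = 3 each), without overlap. Hey1 to Hes1, by contrast, had a ratio of 0.928 ± 0.0636 in control and 0.912 ± 0.0672 in Lhx6-/- libraries, with overlap. Summed by role, receptors had 29.8 ± 1.82 RPKM in control and 33.9 ± 2.72 RPKM in Lhx6-/- libraries, ligands 28.4 ± 1.13 and 29.4 ± 1.86 RPKM, and the 2 targets 28.4 ± 2.22 and 30.4 ± 2.16 RPKM. Each of these sums overlapped between genotypes.

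**Figure D4:**
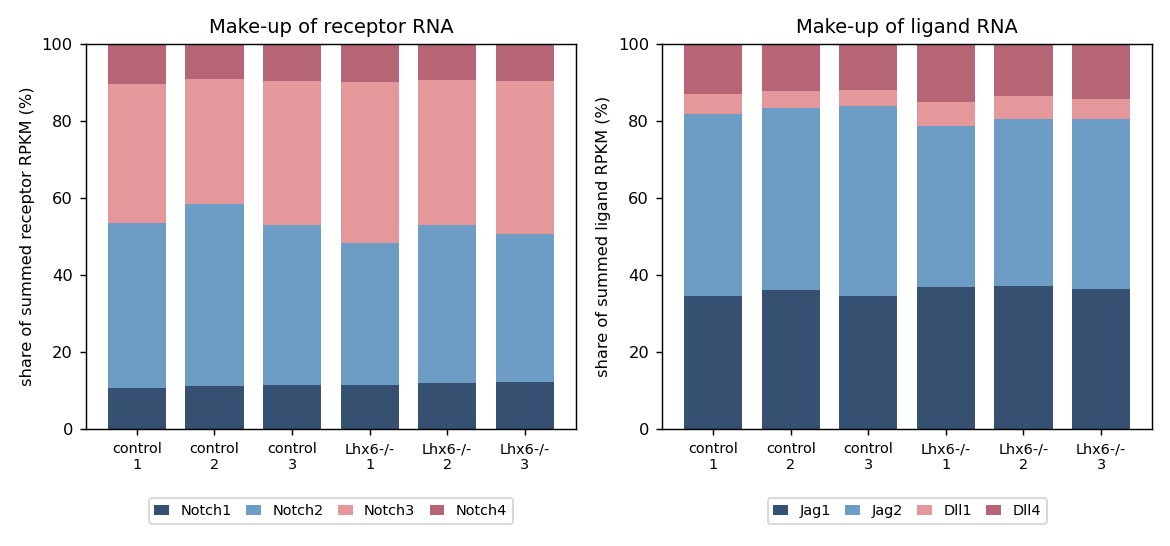
Stacked bars of each receptor's share of the summed receptor RPKM (left, y axis in percent from 0) and each ligand's share of the summed ligand RPKM (right), with 1 bar for each of the 6 libraries on the x axis. The Notch2 and Jag2 parts are smaller in the Lhx6-/- bars (Notch2, 36.8% to 41.0%; Jag2, 41.9% to 44.0%) than in the control bars (Notch2, 41.7% to 47.2%; Jag2, 47.1% to 49.2%).

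Several cell type markers differed between the genotypes in these bulk samples, in which fewer cells of a type and less RNA per cell cannot be told apart. All 12 endothelium markers had the higher mean in Lhx6-/- libraries, and their summed level was 445 to 463 CPM in control and 506 to 581 CPM in Lhx6-/- libraries. Of 11 pericyte and smooth muscle markers, 9 had the higher mean in Lhx6-/- libraries, with sums of 642 to 680 CPM and 797 to 913 CPM. Dental mesenchyme markers (9 of 11 with the higher mean) summed to 1590 to 1680 CPM in control and 1780 to 1810 CPM in Lhx6-/- libraries. Vim made up most of that sum (962 to 1000 and 1060 to 1080 CPM). Of the 11, 5 stood higher and 1 (Msx2) lower without overlap. Odontoblast markers (5 of 6 with the higher mean) summed to 5600 to 6100 CPM and 6740 to 7430 CPM. Dspp made up most of that sum (4280 to 4730 and 5370 to 5990 CPM). Of the 6, 2 (Dspp and Dmp1) stood higher without overlap, and Phex, Nes, Sp7 and Ifitm5 overlapped. The 12 dental epithelium markers went the other way in 12 of 12, with sums of 1440 to 2220 CPM in control and 1060 to 1250 CPM in Lhx6-/- libraries. None of these sums overlapped between genotypes. The 7 erythroid markers also had lower means in 7 of 7 (sums of 3040 to 3760 CPM and 1610 to 2400 CPM). Beside the cell types, 4 Y-linked genes summed to 14.6 to 58 CPM in control and 55.1 to 92.1 CPM in Lhx6-/- libraries (means of 30 and 78.6 CPM). Y-linked RNA comes from male tissue, so the share of male tissue in the pools may differ between genotypes. The part that sex has in the values of the members was not tested. Ameloblast marker sums overlapped between genotypes, at 136000 to 145000 CPM in control and 115000 to 146000 CPM in Lhx6-/- libraries. The sums of follicle and ligament, leukocyte, Schwann cell and skeletal muscle markers overlapped as well. In these lists, 0 markers were at 0 in all libraries.

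Set against the summed endothelium markers of the same library, the members that stood higher no longer separated. Notch1 was 10.5 ± 0.385% of that sum in control and 10.9 ± 0.325% in Lhx6-/- libraries, Dll4 was 2.98 ± 0.194% and 3.05 ± 0.347%, and Dll1 was 1.24 ± 0.135% and 1.31 ± 0.0816% (SD, n = 3 each), all with overlap. Notch3 was 13.0 ± 1.37% of the summed pericyte and smooth muscle markers in control and 12.8 ± 0.774% in Lhx6-/- libraries, again with overlap. The summed dental mesenchyme markers were mostly Vim and themselves stood higher in Lhx6-/- libraries. Against that sum, Notch1, Notch3 and Dll1 still separated and Dll4 overlapped. In control and Lhx6-/- libraries, Notch1 was 2.87 ± 0.0398% and 3.23 ± 0.136% of it. Notch3 was 5.17 ± 0.464% and 6.08 ± 0.704%, and Dll1 was 0.34 ± 0.0346% and 0.389 ± 0.00779%. Jag2 was 20.9 ± 0.868% of the endothelium sum in control and 16.6 ± 2.57% in Lhx6-/- libraries, without overlap, as was Notch2 (31.2 ± 2.17% and 26.4 ± 1.91%). Against the pericyte and smooth muscle sum, Notch2, Jag1, Jag2, Hes1 and Hey1 were all lower without overlap in Lhx6-/- libraries. Each of the 10 members was higher in every Lhx6-/- library relative to the dental epithelium sum. These sums themselves differed between genotypes, so a gene of unchanged CPM can separate against them. By the same arithmetic, a gene that stood higher by about as much as a sum loses its separation, whichever cells express it. The mean endothelium sum was 452 CPM in control and 536 CPM in Lhx6-/- libraries, and the mean pericyte and smooth muscle sum 657 and 849 CPM. Notch2, at 141 CPM in both genotypes, was lower against the endothelium and the pericyte and smooth muscle sums and higher against the dental epithelium sum. The share of all genes that separate in this way was not computed. Fits were also made with a covariate, the mean log2 CPM of a marker list, which is not the summed level used above. With the endothelium markers as the covariate, the log2 fold change of Notch1 was 0.07 (unadjusted p of 0.704 by edgeR). That of Notch3 was -0.24 (p of 0.276). In the same fit Dll4 had 0.33 (SE 0.28, p of 0.253) and Dll1 0.28 (SE 0.41, p of 0.513), close to their values without the covariate but with wider errors. With the pericyte and smooth muscle markers, a covariate added after seeing the data, Notch3 had 0.11 (p of 0.49). With the dental epithelium markers as the covariate Notch3 had 0.06 (p of 0.566). The part that the cell make-up of the pools has in the values of the members was not tested.

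**Figure D5:**
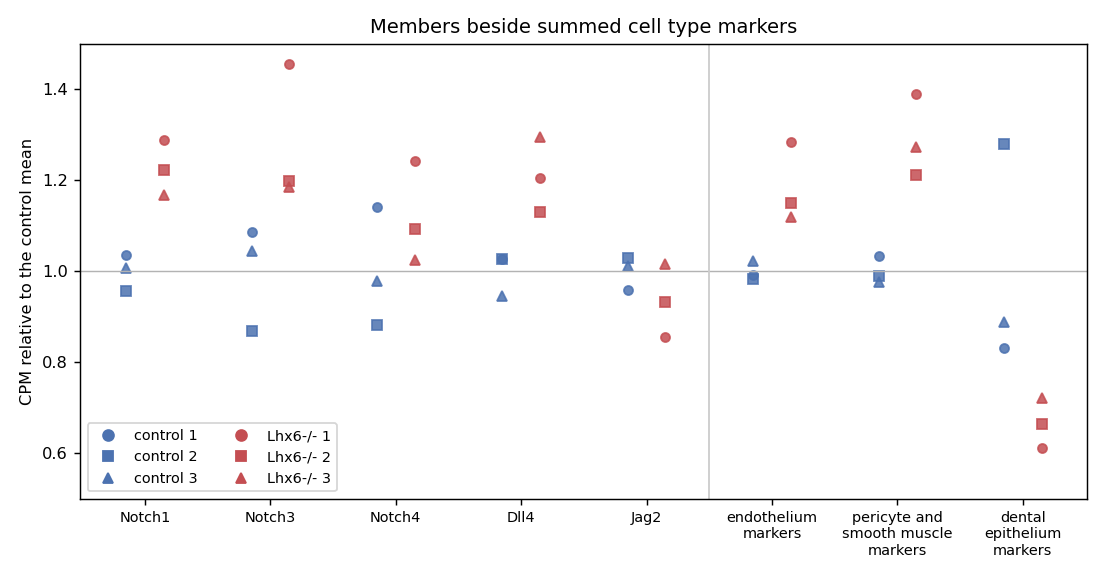
CPM relative to the control mean (y axis) of 5 members, left of the line, and of the summed endothelium, pericyte and smooth muscle, and dental epithelium markers, right of it, in each library (shape, replicate number; colour, genotype). Lhx6-/- replicate 1 is the highest of the Lhx6-/- libraries for Notch1, Notch3 and Notch4 and for both vascular marker sums (581 and 913 CPM), and the lowest for Jag2 and for the dental epithelium sum (1060 CPM).

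The rest of the pathway was examined through 79 other genes of the table, 78 of which could be tested. By edgeR 0 of 78 passed an adjusted p of 0.05 and 0 met the 1.5-fold rule, against the 0.403% and 3.28% of all genes given above. At an unadjusted p under 0.05, 10 had the higher and 1 the lower mean in Lhx6-/- libraries (4.75% and 5.07% of all genes), and 11 stood higher and 2 lower without overlap (7.86% and 7.68% of all genes). The log2 fold change was above 0 for 54 of 78 (69.2%, against 49.7% of all genes), with a median of 0.034 against -0.002 over all genes. The counts above 0 in the lists below are to be read beside the same 49.7%.

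Of the 5 other target genes tested, 4 had a log2 fold change above 0. Heyl, a repressor of the Hey family that is known from vascular smooth muscle, had 40.4, 38.2 and 43.7 CPM in control and 53.5, 46.9 and 51 CPM in Lhx6-/- libraries. All Lhx6-/- values lay above the controls, with a fold of 1.24, an unadjusted p of 0.00251 and an edgeR adjusted p of 0.194. Heyl thus stood apart from Hes1 and Hey1, whose libraries overlapped, though the difference between the genes was not tested. Hes6, a Hes-related protein that counteracts Hes1, had 20, 20.9 and 21.7 CPM in control and 19.1, 17.9 and 17.9 CPM in Lhx6-/- libraries, all below the controls (unadjusted p = 0.0501, edgeR fitted across all genes). Hes7 and Hey2 were at 0.336 and 0.628 RPKM and Hes5 at 0.088 RPKM, far under Hes1.

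Of the 7 atypical ligands and ligand-binding matrix proteins, 6 had a log2 fold change above 0, with a median of 0.293. Mfap2, a microfibril glycoprotein, was the most abundant of them per length (104.0 RPKM over all libraries) and had 114, 102 and 118 CPM in control and 157, 136 and 130 CPM in Lhx6-/- libraries, without overlap (fold 1.27, unadjusted p of 0.00183, edgeR adjusted p of 0.171). Dlk1, a membrane protein related to Delta that lacks its receptor-activating domain, had 112 ± 11.7 CPM in control and 137 ± 6.89 CPM in Lhx6-/- libraries (SD, n = 3 each; edgeR adjusted p = 0.231). Mfap5, a second microfibril protein, had 6.68 ± 1.1 and 8.28 ± 0.29 CPM, also without overlap and with an unadjusted p of 0.0655 by edgeR.

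The enzymes that place sugars on the receptors' EGF repeats had a log2 fold change above 0 in 9 of 12, with a median of 0.047. Gxylt2 and Gxylt1, which add xylose, had log2 fold changes of 0.20 and 0.16. Eogt, which adds N-acetylglucosamine, had 0.24, and Poglut2, which adds glucose, had 0.21. Pofut1, which adds the fucose that fringe enzymes extend, had 0.14. These 5 are named because they had an unadjusted p under 0.05 (Gxylt2, Eogt and Poglut2, 3 of the 12, against 4.75% of all genes in that direction) or no overlap (all but Poglut2, 4 of the 12, against 7.86%). The fringe enzymes Lfng, Mfng and Rfng overlapped, with log2 fold changes of -0.12, -0.15 and 0.03. B4galt1, the highest per length of those in the list with a length (Poglut2 and Poglut3 had none), had 22.8 RPKM in both genotypes.

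The proteases that cut the receptor (Furin, ADAM proteases and gamma-secretase) had a log2 fold change above 0 in 5 of 10, from -0.115 to 0.128, and 0 had an unadjusted p under 0.05. Psenen, a gamma-secretase subunit and the highest of them per length, had 28.7 ± 1.83 RPKM in control and 26.4 ± 2.51 RPKM in Lhx6-/- libraries. In the ligand endocytosis list 7 of 9 were above 0. Neurl1b, a ubiquitin ligase that acts on ligands, had 7.75 ± 0.986 and 9.62 ± 0.816 CPM with overlap (unadjusted p of 0.0446 by edgeR), and the epsin Epn1, the highest of the list, had 50.1 ± 2.28 and 45.8 ± 1.69 RPKM with overlap.

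Receptor trafficking genes were above 0 in 9 of 11. Nedd4, a ubiquitin ligase and the highest of these per length, had 797 ± 12.2 CPM in control and 866 ± 8.98 CPM in Lhx6-/- libraries without overlap (unadjusted p of 0.119 by edgeR), and Dtx4, of the Deltex ubiquitin ligases, had a log2 fold change of 0.22 (p of 0.046). The nuclear complex list was above 0 in 7 of 9. Rbpj itself had 34 ± 4.74 CPM in control and 34.5 ± 2.08 CPM in Lhx6-/- libraries, with overlap. Rbpj is named here outside the rule for named genes. Snw1, a cofactor of the complex, was the 1 pathway gene with a lower mean and an unadjusted p under 0.05 (50.1 ± 0.329 and 44.7 ± 1.44 CPM, p of 0.0305 by edgeR), and Kat2a, the highest of the list per length, had 11.8 RPKM. Corepressors were above 0 in 7 of 15. L3mbtl3, which binds RBPJ, had a log2 fold change of 0.23 and Tle1, which acts with Hes proteins, had 0.22, both without overlap. Ctbp1, the highest of that list per length, had 26.6 RPKM and overlapped.

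Finally, the genes whose pattern over the 6 libraries was most like that of a member were found as those with the smallest root mean square difference of centred log2 CPM, among 11566 genes of at least 5 CPM on average. For Notch3 they were C1ra, Cgnl1 and Tmem30b (0.0424 to 0.0479), where Notch3 itself varied by 0.226 about its mean. For Notch1 they were Hmgn3, Setbp1 and Mgat3 (0.0257 to 0.0282, against 0.156). For Dll4 they were Tm6sf1, Vps50 and Sytl4, and for Dll1 they were Plcb2, Tmem200b and Hhip. The nearest genes were Efl1 for Notch2, Adamts14 for Notch4, Atl3 for Jag1, Pik3r3 for Jag2, Stox2 for Hes1 and Rnf139 for Hey1. No member was among the 3 nearest genes of another. With 6 libraries and this many genes, near matches are common: 3983 genes lay nearer to Notch3 than a flat line did.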

How the data were processed

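RNA of laser-captured apical FDR tissue was sequenced as single-end reads from 3 control and 3 Lhx6-/- pools at PN4.5. Per the submitters' processing notes, reads were aligned with STAR 2.6.1d and quantified in Partek on mm10. The strand setting and annotation of the counting are not given in the sources used here. The authors deposited estimated counts per library without normalization, and a table of their own comparison (ratios, fold changes, p-values and false discovery rates), which was not used except for gene names, positions and mean CPM columns. The count table lists no gene names. The deposited mean CPM values are linear in the counts for all 23594 genes (largest relative deviation 5.1e-08, against 1.97 or more when the order is moved by 1), which fixed the gene order. Lhx6-/- replicates carry the numbers of the sample titles. Nothing states that pools are separate animals, so p-values measure the spread between these libraries.

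Estimated counts were rounded and fitted with edgeR 4.0.16 (R 4.3.3): TMM (factors 0.977 to 1.04), edgeR's expression filter (20114 genes), robust quasi-likelihood test for genotype, two-sided, Benjamini-Hochberg over all tested genes. The coefficient of variation between libraries was 0.202. The script was tested on simulated data. Of the names, 23180 were found in GENCODE vM21. Exon lengths for RPKM were given to the 23061 genes that also matched in chromosome and start. Sign-flip tests went through all sign patterns directly in Python 3.11.15. Alternatives used DESeq2 1.42.0 and limma 3.58.1 (limma-trend, prior count 2), upper-quartile and total-count scaling, no filter, and a minimum of 10 counts in every library. Others used non-robust dispersion, a replicate block, each library left out, and covariates. A covariate was the mean log2 CPM of a list of markers or Y-linked genes. Members and gene lists were chosen with earlier results of these data known. Named genes were Lhx6, the members, other pathway genes with an unadjusted p under 0.05 or no overlap (15 by smallest p), the highest gene per length of each list, markers, and the 3 genes most like a member. Fringe enzymes, Hes5, Hes7, Hey2 and Rbpj were named outside that rule.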

Additional observations from a re-analysis of the deposited data

How the results depend on the processing

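Over 18 alternatives, Notch1 kept its direction (log2 fold change 0.07 to 0.40, unadjusted p under 0.05 in 15), as did Dll4 (0.21 to 0.33, 12 of 18), Dll1 (0.25 to 0.37, 5 of 18) and Lhx6 (-1.78 to -0.58, adjusted p under 0.05 in 12 of 18). Dll4 missed an unadjusted p of 0.05 without control replicate 3 (0.06 by edgeR's fit across all genes) and without Lhx6-/- replicate 3 (0.0804), and Dll1 missed it without any one of 5 libraries (0.0561 to 0.141). Notch3 kept it in 17 (-0.24 to 0.68, p under 0.05 in 15). The count of members past the adjusted threshold was 0 in the reported fit and 1 with DESeq2 (Notch1, adjusted p = 0.0356) and 1 with the Y-linked covariate (Notch3, log2 fold change 0.68, adjusted p = 0.00742). With that covariate 1 member met the 1.5-fold rule, where the reported count was 0. Other pathway genes meeting that rule numbered 0 as reported, 2 with the endothelium covariate, 1 with the dental epithelium covariate, 2 with the Y-linked covariate and 1 with the pericyte and smooth muscle covariate, which was chosen after seeing the data. The cause was not tested. Each covariate is strongly tied to genotype in 6 libraries.

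Leaving out 1 library at a time gave 0 to 0 members and 0 to 0 other pathway genes. It turned the sign of Notch2, whose estimate was near 0, in 3 of 6 cases, with a range of -0.036 to 0.065. With the endothelium covariate the sign turned for Notch2 (-0.135), Notch3 (-0.237), Notch4 (-0.338) and Jag2 (0.255). With the dental epithelium covariate it turned for Notch2 (0.0 after rounding), Notch4 (-0.106) and Jag2 (0.007). With the Y-linked covariate it turned for Notch2 (-0.009), Jag1 (-0.045) and Hey1 (-0.097). With the pericyte and smooth muscle covariate it turned for Notch2 (-0.026), Notch4 (-0.045), Jag2 (0.037) and Hes1 (-0.011). None of these turned values passed an adjusted p of 0.05.

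Same-numbered libraries did not deviate together (correlations 0.026, -0.029 and -0.031). With 3 libraries a group, this cannot decide whether the libraries were paired. The paper mentions sample pairs and littermates but not how they were matched. The deposited library names number the Lhx6-/- replicates differently from the sample titles, so the numbers compared here may not mark such pairs. With the replicate block 0 members passed the adjusted threshold, and over all genes the count went from 81 to 134. Over all alternatives that count ran from 1 to 359. By the longest coding transcript 5 pairs of neighbouring levels kept one direction in all libraries, and 5 did so in control libraries only, against 4 as reported. Dll1 had the fewest counts of the members, 296 to 531 a library. How much of each member's error is counting error was not tested.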
